A study of Drosophila melanogaster with 34 samples.

Results

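Oxidative phosphorylation genes were followed as messenger RNA in single Drosophila embryos. The members were chosen by symbol alone: nuclear genes beginning ND-, UQCR-, COX, ATPsyn or Sdh, and mitochondrial genes beginning mt:ND, mt:Co, mt:Cyt or mt:ATPase. This gave 101 of the 17491 genes counted, of which 88 lie in the nuclear genome and 13 in the mitochondrial genome. Of the nuclear members, the symbols place 40 with complex I, 8 with complex II, 9 with complex III, 16 with complex IV and 15 with complex V. Those of complex II include Sdhaf3, which is an assembly factor and not a subunit. The mitochondrial members comprise 7 subunits of complex I, 1 of complex III, 3 of complex IV and 2 of complex V.

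The study asked in which nuclear cycles (NC) the early embryo needs Zelda, a maternally supplied pioneer factor for early zygotic genes. CRY2-ZLD embryos carry it joined to the blue-light receptor CRY2 from plants, and blue light inactivates the joined protein. CRY2-ZLD embryos under 488 nm light formed 4 groups, lit during NC10-14 (3 embryos), NC10-12, NC13-14 or NC14 (4 embryos each), and 4 further CRY2-ZLD embryos received no light. Wild-type embryos received the same 4 windows of light (3, 4, 4 and 4 embryos), which makes 34 libraries in 9 groups. Embryos of both genotypes carried the red fluorescent His2AvRFP marker, so that wild type here means His2AvRFP alone. All were collected 30 minutes into NC14, and each library holds the poly(A) RNA of 1 whole embryo. Unlit wild-type embryos were not used here, and nothing says whether embryos of a group had separate parents. P-values therefore measure the spread between these embryos.

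Oxidative phosphorylation moves electrons from NADH through complex I, or from succinate through complex II, to complexes III and IV, which pass them to oxygen. Complexes I, III and IV pump protons across the inner mitochondrial membrane, and complex V, the ATP synthase, uses the returning protons to make ATP. Most subunits are encoded in the nucleus, while a small group of membrane core subunits of every complex except II is encoded in mitochondrial DNA and transcribed inside the organelle. A fly embryo at this age still holds mitochondria and messenger RNA that its mother placed in the egg, while its own nuclei are already transcribing. Maternal and zygotic messenger RNA of a gene were not told apart here. In whole embryos, fewer cells of a type and less RNA per cell cannot be told apart.

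Library totals ran from 4382299 to 41210334 counts. Summed levels of the blastoderm markers lay between 431 and 795 CPM (counts scaled to a common library size) in lit CRY2-ZLD NC10-14 embryos and between 5731 and 15040 CPM in wild-type NC10-14 embryos. Of those 11 genes, 10 had counts and Sry-alpha was at 0. Markers of follicle cells and yolk summed to 0.219 to 3.94 CPM and those of testis to 0 to 1.87 CPM in every library. The 6 markers of differentiated tissues, among them elav, Mhc and repo, all had counts, and their part in the results was not tested. They summed to 6.13 to 41.2 CPM in CRY2-ZLD and 6.455 to 16.57 CPM in wild-type embryos at NC10-14, to 18.8 to 67.5 CPM in CRY2-ZLD and 35.9 to 131 CPM in wild type at NC10-12, and to 49.0 to 282 CPM in CRY2-ZLD and 68.9 to 86.6 CPM in wild type at NC13-14. At NC14 they summed to 146.3 to 260.5 CPM in CRY2-ZLD and 54.5 to 112.7 CPM in wild-type embryos, without overlap, and in unlit CRY2-ZLD embryos to 70.9 to 143 CPM, above all of the lit NC10-14 embryos. The 5 libraries treated here as standing apart from the rest were CRY2-ZLD NC10-12 replicates 3 and 4 together with 3 of wild type, namely replicate 2 of NC10-14, replicate 4 of NC13-14 and replicate 3 of NC14. These 5 libraries were set by name, with no stated rule for the choice, so fits without them are no formal check of outliers. Of the called nuclear members, leaving them out kept 6 of 6 at NC10-14, 4 of 11 at NC10-12, 6 of 7 at NC13-14, 4 of 11 at NC14 and all in the comparisons with unlit embryos. The libraries of the NC10-14, NC13-14 and unlit groups also fall into 2 blocks of library number, S1 to S10 (replicates 1 and 2) and S11 to S18 (replicates 3 and 4). The labels do not say what the numbers stand for, and the 8 libraries S11 to S18 differed from the others in their mitochondrial members, as described further on.

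Levels were compared between genes as CPM per kilobase of exon, taking the median of the 34 libraries. The members of the mitochondrial genome had a median of 926 CPM per kb and the 72 nuclear members that passed the filter on low counts a median of 65.9 CPM per kb. Among the mitochondrial members, mt:CoIII, mt:CoI and mt:CoII, the core of cytochrome c oxidase, stood at 8154, 6268 and 3190 CPM per kb. The ATP synthase subunit mt:ATPase6 followed at 3149 CPM per kb and mt:Cyt-b, the cytochrome b of complex III, at 2695 CPM per kb. The complex I subunits were lower and far apart from each other, with mt:ND1 at 1157, mt:ND4 at 926, mt:ND3 at 848, mt:ND5 at 710, mt:ND2 at 34.3, mt:ND4L at 5.62 and mt:ND6 at 3.73 CPM per kb. The other ATP synthase subunit, mt:ATPase8, stood at 16.9 CPM per kb. It is 162 bases long and shares 7 of them with mt:ATPase6 on the same strand (chrM:3907-4068 and chrM:4062-4736, dm6), so its value is uncertain. Values of mt:ND4L and mt:ND6 are uncertain as well. On the minus strand mt:ND4L shares 1 base with mt:ND4 (chrM:9545-9835 and chrM:8207-9545). On the plus strand mt:ND6 ends at chrM:10495, just before mt:Cyt-b at chrM:10499.

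Nuclear members differed in level by complex. The median of the tested members was 212 CPM per kb for complex V, 178 for complex IV, 56.7 for complex I, 39.7 for complex III and 27.6 for complex II. The highest were ATPsynO at 384, ATPsynCF6 at 334, COX7B at 328 and ND-MLRQ at 328 CPM per kb. SdhA, the flavoprotein of complex II, stood at only 12.7 CPM per kb, and ND-51, the NADH-binding subunit of complex I, at 16.2 CPM per kb. Among the lowest tested genes that the rule did not mark as copies were ATPsynepsilonL at 0.191, ND-B8 at 0.205, ND-MWFE at 2.95 and UQCR-6.4 at 9.21 CPM per kb, and other genes cover 15.4% of the exon bases of ND-B8, 35.0% of those of ND-MWFE and 40.5% of those of UQCR-6.4. Reads of overlapping genes were counted without strand, so values of such members are uncertain.

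**Figure D1:**
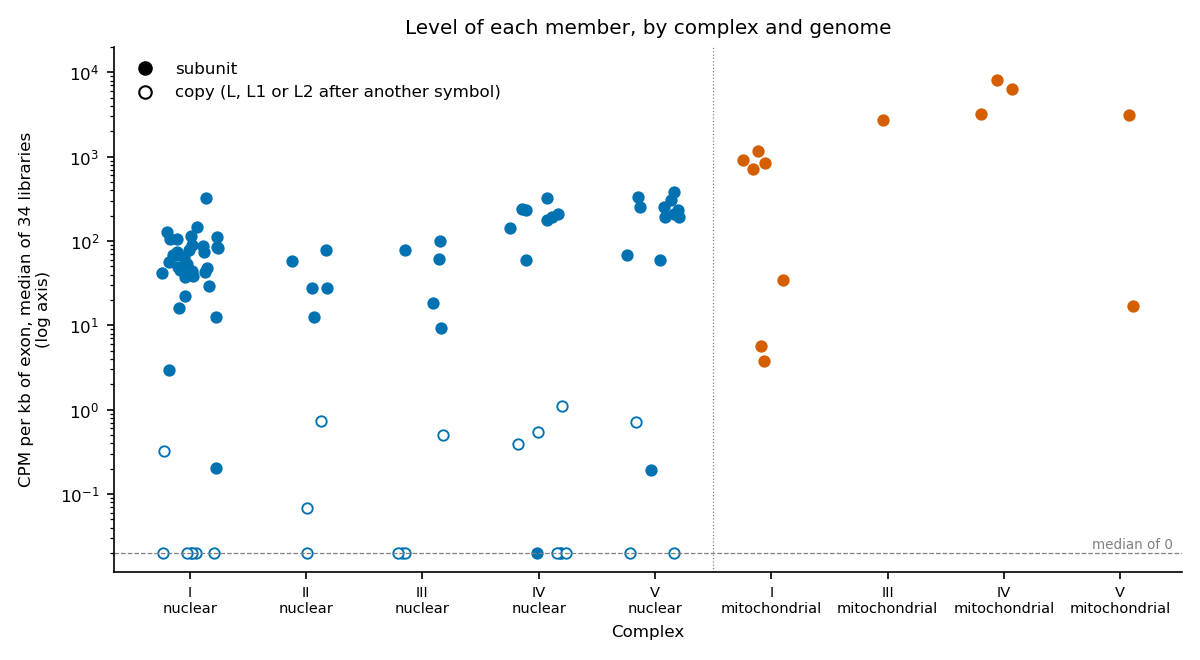
CPM per kilobase of exon (log axis) of each member, by complex and genome, as the median of the 34 libraries, with medians of 0 on the dashed line. Open points are copies named L, L1 or L2 after another symbol. Mitochondrial members of complex IV lie above every nuclear member, mt:ND2, mt:ND4L, mt:ND6 and mt:ATPase8 lie far below the other mitochondrial members, and the copies lie below the other subunits of their complex except a few subunits that are barely detected.

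Of the 88 nuclear members, 20 are copies named after another member, the kind of duplicate that in flies is often used in the male germline. Of these copies, 9 were tested, 4 had 0 counts in every library, and in 18 of the 20 the highest library stayed below the lowest library of the partner gene, per kb. The median level of the partner was 454 times that of the copy for COX4L, 356 times for ATPsynbetaL, 184 times for SdhAL, 109 times for SdhBL and 18.4 times for UQCR-6.4L. In all, 16 nuclear members failed the filter, and 8 had 0 counts in every library, among them ND-MNLL and UQCR-14, whose exons are wholly overlapped by other genes. Near-identical copies can exchange reads, so the small values of copies are uncertain.

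The largest pattern among the mitochondrial members followed the library number. All 13 were lower in the 8 libraries S11 to S18 than in the 10 libraries S1 to S10 by edgeR's quasi-likelihood test with Benjamini-Hochberg adjustment over 8976 genes, against 6.21% of all genes called, 3.28% lower and 2.93% higher. All 13 also had every S11 to S18 library below every S1 to S10 library, while 1.15% of all genes had libraries that did not overlap. Together they took 0.414% to 1.49% of counts in S11 to S18 (median 0.670%) and 2.44% to 3.57% in S1 to S10 (median 2.94%). The NC10-12 libraries, at 2.47% to 3.35%, lay within the range of S1 to S10, and the NC14 libraries ran from 1.33% to 4.16%.

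The decrease differed greatly between mitochondrial members. CPM of mt:CoI were 1620 to 4696 (median 2333) in S11 to S18, against 7639 to 12841 (median 10252) in S1 to S10, 4.27-fold lower (log2 change -2.09 ± 0.14, SE; edgeR adjusted p = 4.8e-07). For mt:CoIII the medians were 1923 CPM in S11 to S18 and 6434 CPM in S1 to S10, 3.42-fold lower (edgeR adjusted p = 2.08e-05). At the other end, mt:ND2 had 0.171 to 2.71 CPM (median 0.659) in S11 to S18 and 29.9 to 60.9 CPM (median 39.99) in S1 to S10, 61.3-fold lower (log2 change -5.94 ± 0.38, SE; edgeR adjusted p = 4.8e-07). The highest S11 to S18 library of mt:ND2 was thus 11.03 times below the lowest S1 to S10 library.

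Between these lay mt:Cyt-b at 5.18-fold, mt:ND1 at 7.69-fold, mt:ND5 at 7.86-fold, mt:ND4 at 13.2-fold and mt:ND3 at 18.7-fold lower in S11 to S18. The scarce mt:ATPase8, mt:ND6 and mt:ND4L were 37.6-fold, 46.2-fold and 69.8-fold lower by the fitted change, with medians of 0.0636, 0.0330 and 0 CPM in S11 to S18, where those folds depend on a few counts. Least certain was mt:ATPase6, which had 95.1 to 1541 CPM (median 857) in S11 to S18 and 1688 to 2567 CPM (median 2133) in S1 to S10 (log2 change -1.78 ± 0.46, SE; edgeR adjusted p = 0.0302). Its call was lost when any of 4 libraries was left out, and also without the 5 libraries that stand apart.

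The make-up of the mitochondrial counts differed between the blocks as well. In S11 to S18, mt:CoIII made up a median of 29.5% of the counts of the 13 members and mt:ATPase6 11.5%, against 22.9% and 7.13% in S1 to S10. The share of mt:ND4 was 1.503% in S11 to S18 and 4.52% in S1 to S10, and that of mt:ND2 was 0.00894% in S11 to S18 and 0.140% in S1 to S10. That of mt:CoI was nearly equal, with 34.2% in S11 to S18 and 35.9% in S1 to S10. The mitochondrial ribosomal RNAs moved with the members, mt:lrRNA by -2.32 and mt:srRNA by -3.80 on the log2 scale, both called lower.

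**Figure D2:**
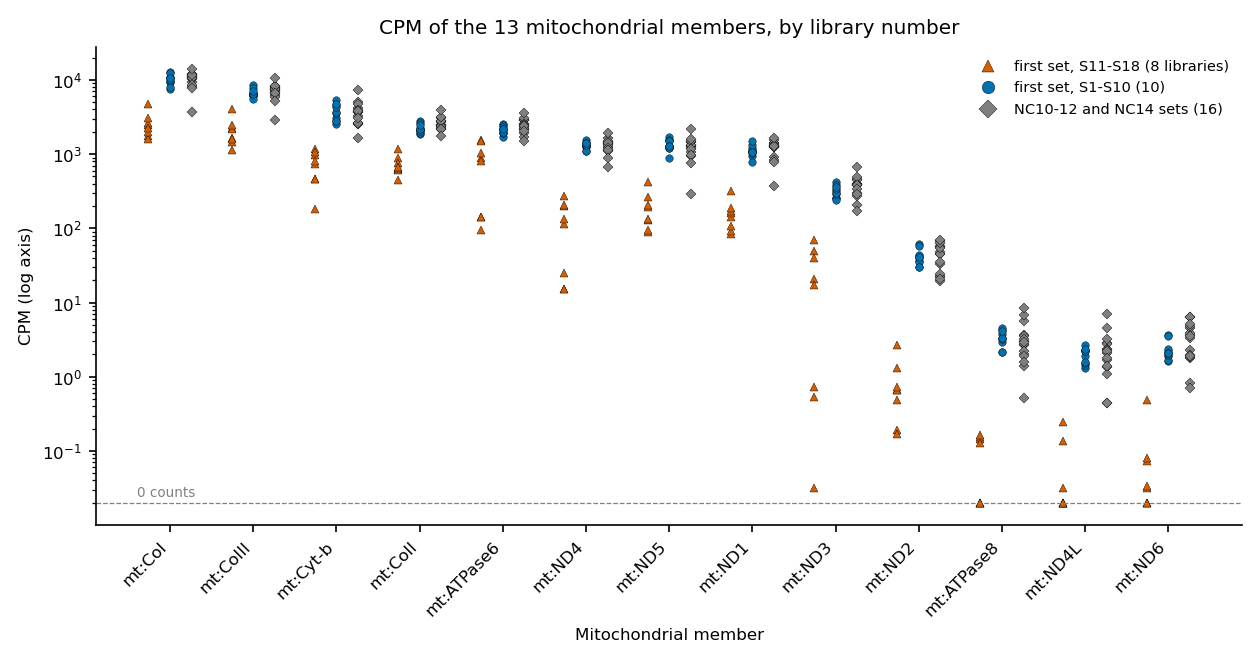
CPM (log axis) of the 13 mitochondrial members in every library, with S11 to S18 left of S1 to S10 and the 16 libraries of the NC10-12 and NC14 sets at the right; each point is 1 library. In every member the S11 to S18 points lie below the S1 to S10 points, with the widest gaps in mt:ND2 and mt:ATPase8.

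The direction of nuclear members in S11 to S18 depended on the scaling. Of 70 tested, 1 was lower and 16 were higher with trimmed means, against 6.21% of all genes called (3.28% lower and 2.93% higher). With scaling by cytosolic ribosomal protein genes 16 were lower and 3 higher, beside 2657 lower and 41 higher of all 8976 genes. The share of all calls that were lower was 52.8% with trimmed means and 98.5% with the other scaling. With trimmed means, 13 of the 17 calls remained without the 5 libraries that stand apart. The nuclear members' summed share of counts was 0.720% to 0.886% in S11 to S18, against 0.561% to 0.848% in S1 to S10. Scaling by cytosolic ribosomal protein genes in place of trimmed means moved the median log2 change of all genes by -0.354 in this comparison, and under it 4 of the 17 calls remained, COX5A, UQCR-Q and COX7B higher and ND-MLRQ lower. COX5A, a subunit of complex IV, had a median of 328 CPM (271 to 341) in S11 to S18 and 181 CPM (132 to 227) in S1 to S10 (log2 change 0.81 ± 0.07, SE; edgeR adjusted p = 1.79e-06; 0.46 under the other scaling). UQCR-Q of complex III rose by a like amount, with log2 changes of 0.82 and 0.46 under the 2 scalings. ND-MLRQ, a subunit now placed with complex IV, was at a median of 121 CPM in S11 to S18 and 190 CPM in S1 to S10 (log2 change -0.73 ± 0.14, SE; edgeR adjusted p = 0.00507). Within these groups, embryo replicate and library number cannot be told apart.

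**Figure D3:**
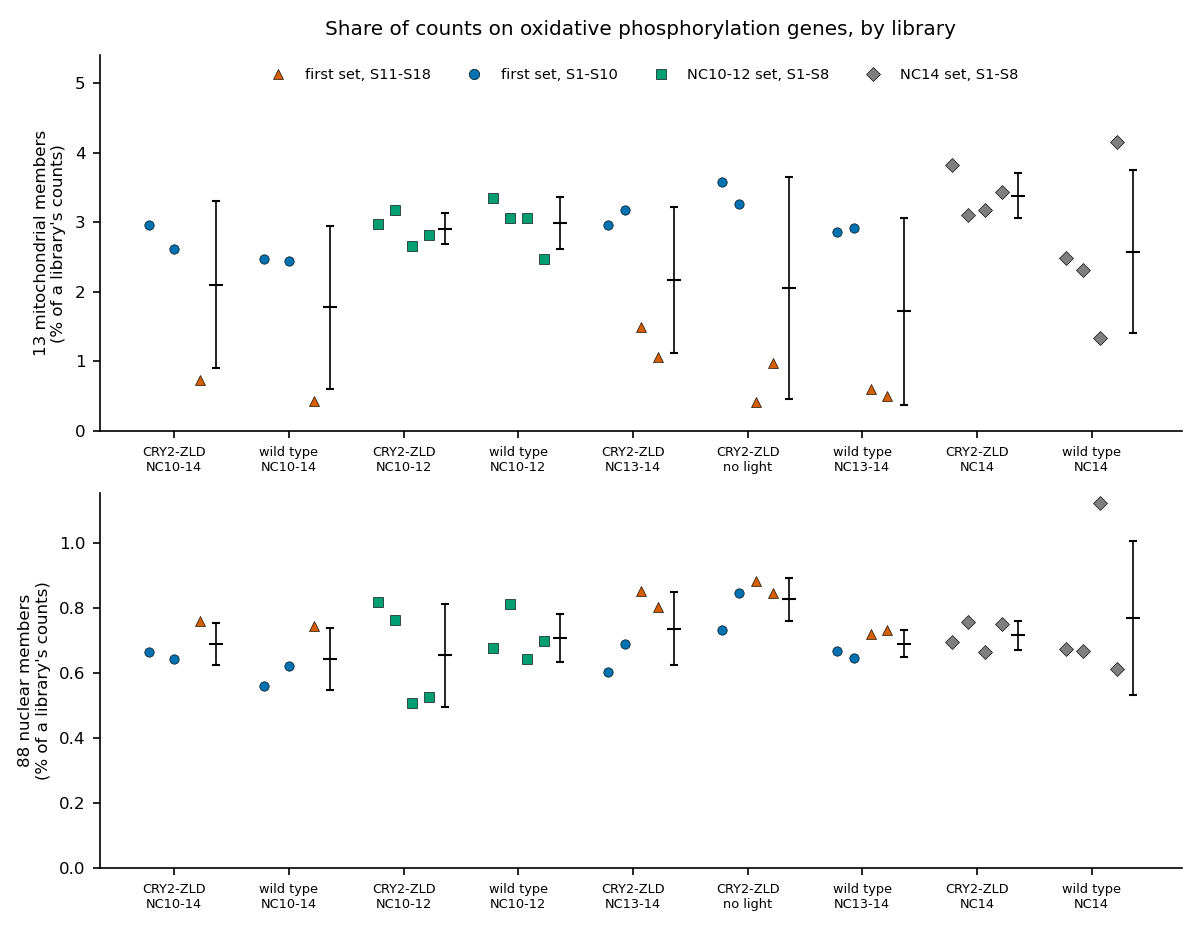
Share of counts in percent held by the mitochondrial members (one panel) and the nuclear members (the other) in each library, by group, with the mean ± SD of each group; marker shape separates the library numbers. The NC10-14, NC13-14 and unlit groups each split in the mitochondrial panel into high and low libraries, while the nuclear share stays between 0.509% and 1.13% throughout.

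Between genotypes no mitochondrial member was called in any window, and none reached an unadjusted p under 0.05 in these 4 comparisons by edgeR. That fit took its spread from all 34 libraries. Fitting only the NC10-12 libraries did call mitochondrial members there, with the count given in the closing section. All genes called in it were 1163 lower and 1312 higher of 8064. The fit over all 34 libraries has no term for the library blocks. With such a term mt:ND2 was called higher in CRY2-ZLD at NC13-14 (log2 change 1.42 ± 0.46, SE; edgeR adjusted p = 0.0316), as were 8.67% of all genes, and with a replicate block mt:ND5 was called higher at NC14 (0.99 ± 0.32; 0.0399), as were 7.94% of all genes. Summed mitochondrial shares were 2.104 ± 1.201% in CRY2-ZLD and 1.78 ± 1.17% in wild-type embryos at NC10-14 (SD, n = 3 each). At NC10-12 the CRY2-ZLD share was 2.91 ± 0.22% and the wild-type share 2.99 ± 0.37%, at NC13-14 CRY2-ZLD embryos had 2.17 ± 1.05% and wild-type embryos 1.72 ± 1.34%, and at NC14 CRY2-ZLD embryos had 3.38 ± 0.32% and wild-type embryos 2.58 ± 1.17% (SD, n = 4 each). Intervals were wide: the log2 change of mt:CoI at NC13-14 was 0.22 with a 95% interval of -0.92 to 1.37, and that of mt:ND2 was 0.31 with -2.14 to 2.76.

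Within the library blocks the spread was smaller. With a term for library numbers 11 to 18 in the fit, a setting chosen after the data were seen, the average over the 4 windows was higher in CRY2-ZLD for 4 of the 13, namely mt:ND2 (log2 change 0.95 ± 0.22, SE; edgeR adjusted p = 0.000569), mt:ND5 (0.58 ± 0.17), mt:ND1 (0.41 ± 0.15) and mt:CoI (0.32 ± 0.13). Of all 9519 genes, 26% were called higher in that fit. CPM of mt:ND2 at NC10-12 were 45.8, 48.0, 58.3 and 55.3 in CRY2-ZLD, against 32.9, 35.3, 23.0 and 22.1 in wild-type embryos, without overlap. At NC10-12, 1 of the 13 lay wholly higher and 1 wholly lower, where 30.8% of all genes did not overlap. At NC10-14, NC13-14 and NC14, 0 of the 13 were separated, beside 30%, 32.1% and 15.1% of all genes. In S11 to S18 the 3 lit CRY2-ZLD libraries had 0.657 to 2.71 CPM of mt:ND2 and the 3 wild-type libraries 0.171 to 0.487 CPM, also without overlap, while in S1 to S10 and in the NC14 set the genotypes overlapped. The share of all genes separated within a library block is not given. Cytochrome b went the other way in part: mt:Cyt-b had means of 2855 CPM in CRY2-ZLD and 4464 CPM in wild-type embryos at NC10-12, with every CRY2-ZLD library lower. In S1 to S10 its means were 2980 CPM in lit CRY2-ZLD and 4756 CPM in wild-type embryos, again with every CRY2-ZLD library lower. In the NC14 set and in S11 to S18 its genotypes overlapped, and in S11 to S18 the CRY2-ZLD mean of 966 CPM was above the wild-type mean of 581 CPM.

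Among nuclear members the genotype comparisons called few. At NC10-14, 3 of 72 were lower and 3 higher in CRY2-ZLD embryos, against 15.4% of all 9519 genes called (7.58% lower and 7.82% higher). At NC10-12, 8 were lower and 3 higher (33.4% of all genes, 16.5% lower and 16.9% higher), at NC13-14 5 were lower and 2 higher (17.3%, 8.94% lower and 8.32% higher), and at NC14 10 were lower and 1 higher (17.4%, 9.65% lower and 7.79% higher). Libraries of the 2 genotypes did not overlap in 13 members lower and 6 higher at NC10-14, where 30% of all genes did not overlap, in 10 lower and 4 higher at NC10-12 (30.8%), in 9 lower and 4 higher at NC13-14 (32.1%) and in 7 lower and 0 higher at NC14 (15.1%). The median log2 change of the 72 was -0.10, -0.09, -0.03 and -0.35 in the 4 windows in that order, beside 0.06, -0.01, 0.07 and -0.03 for all genes. Scaling by cytosolic ribosomal protein genes raised the all-gene median by 0.277, 0.210, 0.213 and 0.450, and changes smaller than these shifts can turn sign. Under it 2 nuclear members were lower and 5 higher at NC10-14, 3 and 5 at NC10-12, 3 and 6 at NC13-14, and 2 and 8 at NC14, and the share of all calls that were lower was 35.6%, 33.6%, 38.1% and 23.9%, against 49.2%, 49.3%, 51.8% and 55.3% with trimmed means. Of all 9519 genes, 446 were lower and 807 higher under that scaling at NC10-14. They were 888 and 1757 at NC10-12, 573 and 931 at NC13-14, and 462 and 1472 at NC14. With 1 library left out the nuclear count ran from 3 to 7 at NC10-14, 6 to 11 at NC10-12, 2 to 5 at NC13-14 and 3 to 16 at NC14, lowest without CRY2-ZLD NC10-14 replicate 4, wild-type NC10-12 replicate 1 or 2, CRY2-ZLD NC13-14 replicate 1 and CRY2-ZLD NC14 replicate 1. Over the windows, 21 nuclear members were called at least once, 13 of them in 1 window only, and 0 in opposite directions. The like counts over all genes are not given, so these numbers stand without a background.

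**Figure D4:**
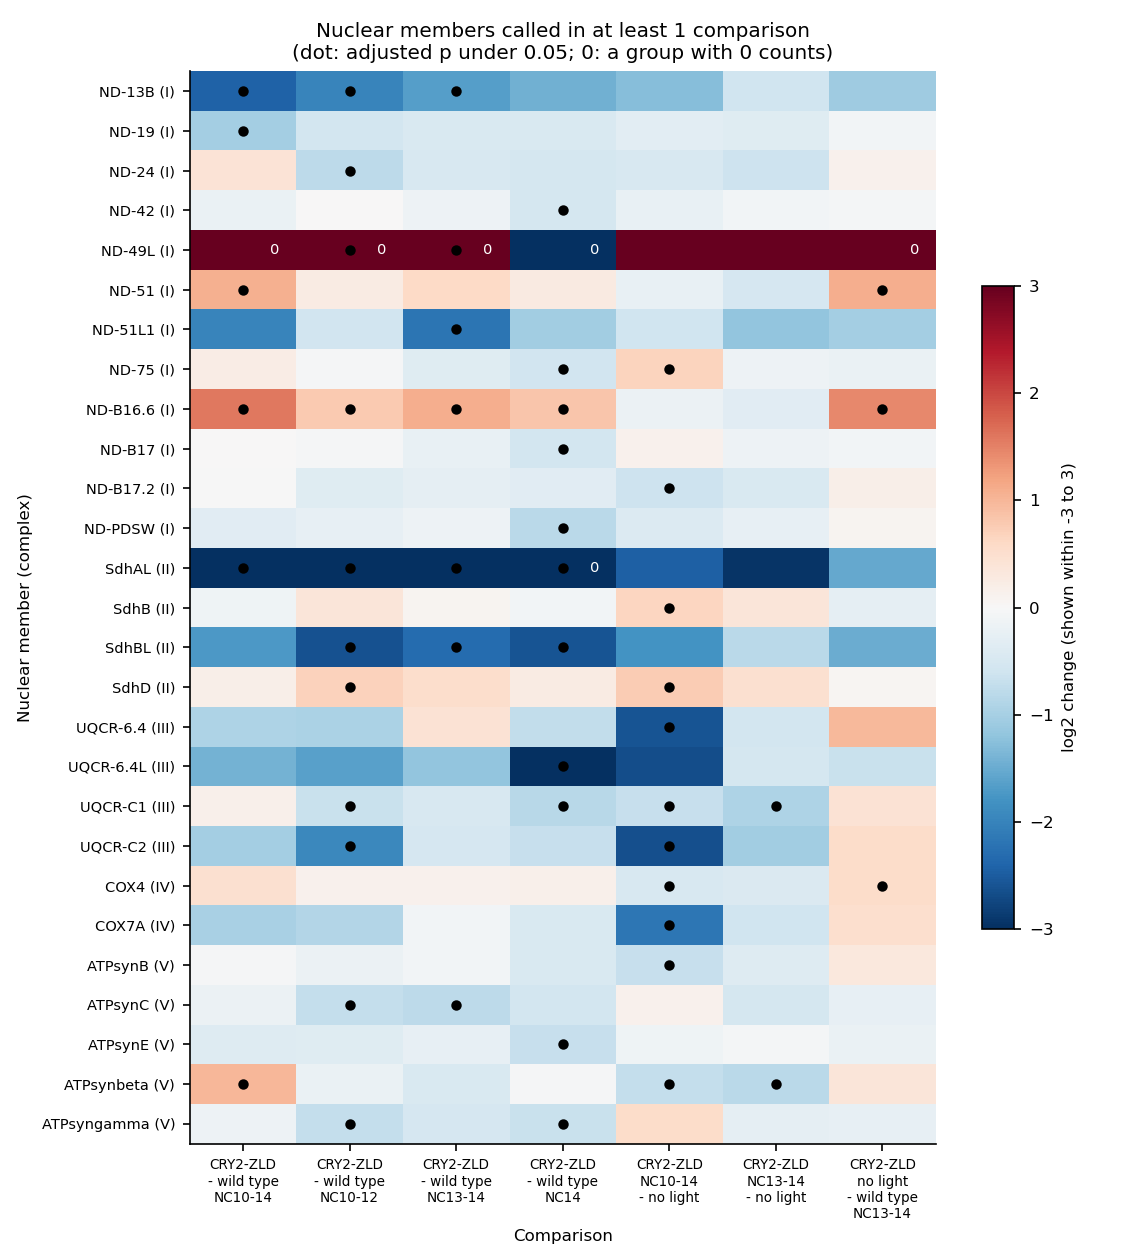
Heat map of log2 changes of the nuclear members called in at least 1 of 7 comparisons (rows, by complex; columns are the 4 genotype comparisons, the 2 lit against unlit comparisons and unlit CRY2-ZLD against wild type); dots mark an adjusted p under 0.05 and a 0 marks a group with 0 counts. ND-B16.6 is higher in CRY2-ZLD in all 4 windows and in the unlit embryos, and SdhAL is lower in all 4 windows.

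In complex I, ND-B16.6, an accessory subunit (chrX:6349016-6350401, minus strand, dm6), was higher in CRY2-ZLD embryos in all 4 windows. It had 63.7, 65.6 and 102 CPM in CRY2-ZLD NC10-14 embryos and 21.4, 21.6 and 34.1 CPM in wild-type NC10-14 embryos, 2.999-fold higher (log2 change 1.59 ± 0.27, SE; edgeR adjusted p = 8.12e-05). At NC13-14 it had 59.8, 70.0, 85.1 and 59.2 CPM in CRY2-ZLD, against 25.7, 29.2, 37.1 and 36.04 CPM in wild-type embryos (1.10 ± 0.23; edgeR adjusted p = 0.00093). The libraries of the 2 genotypes did not overlap in either window. At NC10-12 the values were 57.0, 68.9, 44.5 and 44.3 CPM in CRY2-ZLD and 33.2, 39.7, 18.9 and 33.6 CPM in wild-type embryos (0.78 ± 0.23; edgeR adjusted p = 0.0103, and 0.0502 without wild-type NC10-12 replicate 3). At NC14 they were 48.6, 67.9, 53.1 and 68.1 CPM in CRY2-ZLD and 31.9, 27.1, 48.6 and 25.7 CPM in wild-type embryos, which meet at the highest wild-type library (0.83 ± 0.23; edgeR adjusted p = 0.012). Of all 19 CRY2-ZLD libraries, 16 lay above every wild-type library, and the log2 change was larger under the ribosomal protein scaling in each window. CG3847 overlaps 17.5% of its exon bases, and its part in the counts was not tested.

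ND-13B, another accessory subunit (chr3L:10693184-10694108, minus strand, dm6), went the other way. In CRY2-ZLD embryos it had 3.45, 18.8 and 3.14 CPM at NC10-14, 25.1, 5.26, 10.2 and 3.36 CPM at NC10-12, and 6.38, 9.50, 9.51 and 28.4 CPM at NC13-14. Wild-type embryos had 40.6, 44.5 and 49.9 CPM at NC10-14, 40.8, 50.5, 35.7 and 47.4 CPM at NC10-12, and 35.0, 34.8, 45.9 and 55.3 CPM at NC13-14. Every one of the 19 CRY2-ZLD libraries, unlit ones included, lay below every one of the 15 wild-type libraries, with the closest at 30.2 and 33.6 CPM. ND-13B was the only tested nuclear member separated in this way in the 4 windows, as were 2.09% of all genes. The log2 change was -2.42 ± 0.62 at NC10-14 (SE; edgeR adjusted p = 0.00636), -1.99 ± 0.53 at NC10-12 (0.00401) and -1.66 ± 0.52 at NC13-14 (0.0242). The NC10-14 call was lost without CRY2-ZLD replicate 4 (adjusted p = 0.0564), the NC13-14 call without any of 5 libraries (up to 0.0929), and the NC10-12 call without the 5 libraries that stand apart (-1.55, 0.0877). At NC14 it had 17.3, 21.96, 20.96 and 10.7 CPM in CRY2-ZLD and 44.5, 37.2, 76.9 and 33.6 CPM in wild-type embryos, a log2 change of -1.44 that was not called (edgeR adjusted p = 0.0523; 95% interval -2.47 to -0.40).

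The NADH-binding subunit ND-51 had 32.5, 24.7 and 45.8 CPM in CRY2-ZLD NC10-14 embryos and 14.0, 19.8 and 15.3 CPM in wild-type NC10-14 embryos, 2.095-fold higher (edgeR adjusted p = 0.031), without overlap. The call was lost without any of 3 libraries (adjusted p up to 0.139), and in the other windows the log2 change was 0.24 to 0.59 and not called. ND-19, an accessory subunit, had 28.1, 27.3 and 32.4 CPM in CRY2-ZLD and 51.6, 60.8 and 66.7 CPM in wild-type NC10-14 embryos, 2.04-fold lower (edgeR adjusted p = 0.0092, and 0.0666 without wild-type replicate 4). Its log2 change was -1.03 with the main scaling and -0.75 with the ribosomal protein scaling. At NC14 the core subunit ND-75 and the accessory subunits ND-42, ND-PDSW and ND-B17 were called lower by 0.52 to 0.81 on the log2 scale, yet under the ribosomal protein scaling none was called, and ND-42 and ND-B17 turned to 0.060 and 0.022. The core subunit ND-24 was called lower at NC10-12 by 0.78 on the log2 scale (edgeR adjusted p = 0.0254) and ND-51L1, a copy of ND-51, at NC13-14 by 2.20 (0.039), calls lost without any of 5 and of 6 single libraries. Without the 5 libraries that stand apart, ND-24 had a log2 change of -0.68 (edgeR adjusted p = 0.086) and ND-51L1 one of -1.69 (0.0671).

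Wild-type NC14 replicate 3 had 499 CPM of ND-42 beside 238 to 274 CPM in the other wild-type NC14 embryos, and its nuclear members took 1.13% of counts, the highest share of any library. Without it the log2 change of ND-42 was -0.22 (edgeR adjusted p = 0.22), and those of ND-75, ND-PDSW, ND-B17, ATPsynE, ATPsyngamma and UQCR-C1 were not called either. Leaving out the 5 libraries that stand apart, this one among them, kept 4 of the 11 NC14 calls, ND-B16.6, SdhAL, SdhBL and UQCR-6.4L.

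In complex II most calls were of copies. SdhAL, a copy of the flavoprotein gene SdhA (chr3L:11922610-11924757, minus strand, dm6), was lower in CRY2-ZLD in all 4 windows. Its median was 0.770 CPM in wild-type and 0 CPM in CRY2-ZLD libraries. It passed the filter on low counts through wild type, so a lower call is tied to that filter. It had 0.119, 0 and 0 CPM in CRY2-ZLD and 1.22, 0.342 and 1.46 CPM in wild-type embryos at NC10-14, which is 3 against 77 counts, 26.6-fold lower with a 95% counting interval of 8.76 to 132 (edgeR adjusted p = 0.0497; 0.0958 under the ribosomal protein scaling). At NC13-14 the libraries held 3 counts in CRY2-ZLD and 65 in wild type, 30.4-fold lower (9.95 to 151; edgeR adjusted p = 0.0223). At NC14, CRY2-ZLD embryos held 0 counts and wild-type embryos 86, at least 20.7-fold lower against a floor of 3 counts over the group (edgeR adjusted p = 0.00408).

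At NC10-12 SdhAL had 0, 0.297, 0 and 0 CPM in CRY2-ZLD and 0.716, 1.13, 0.974 and 0.354 CPM in wild-type embryos (log2 change -3.31; edgeR adjusted p = 0.045, and 0.302 without the 5 libraries that stand apart). Except at NC14, its calls were lost without any of 4 to 6 single libraries. SdhBL, a copy of the iron-sulfur subunit gene SdhB, was called lower at NC10-12, NC13-14 and NC14 by 2.60, 2.31 and 2.59 on the log2 scale, and the NC13-14 and NC14 calls were lost without any of 5 and of 2 single libraries. At NC10-12 it had 1.78, 0.551, 1.05 and 0.425 CPM in CRY2-ZLD, all below the 6.59, 8.29, 2.01 and 6.29 CPM of wild-type embryos (edgeR adjusted p = 0.0095, and 0.109 without the 5 libraries that stand apart). SdhD, a membrane anchor, was instead higher at NC10-12, with 56.6, 63.8, 52.6 and 60.1 CPM in CRY2-ZLD and 31.5, 42.7, 31.3 and 39.1 CPM in wild-type embryos (0.69 ± 0.24; edgeR adjusted p = 0.0261, lost without any of 4 libraries). Levels of SdhA, SdhB and SdhC passed the test in no window.

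**Figure D5:**
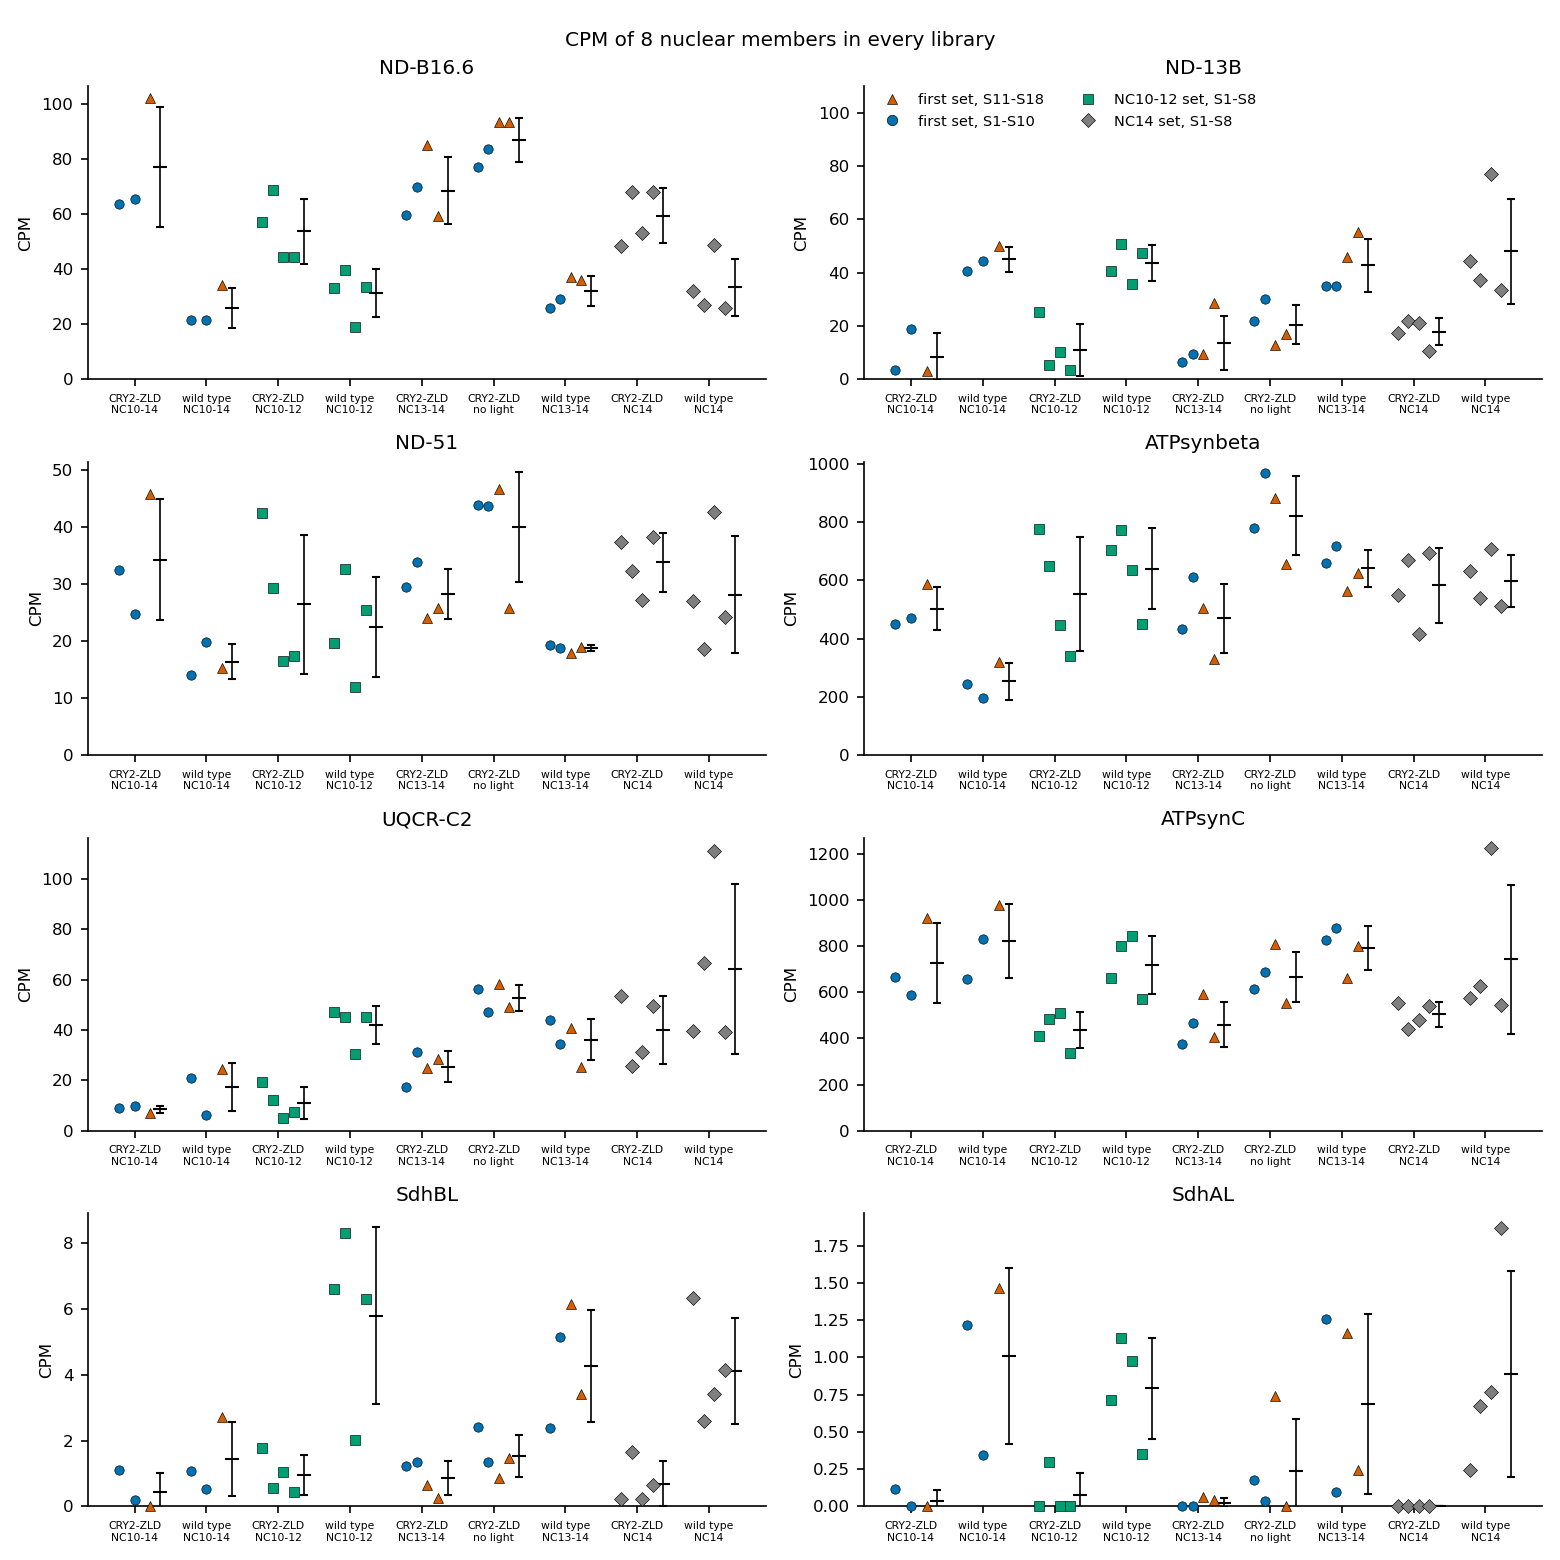
CPM of 8 nuclear members (ND-B16.6, ND-13B, ND-51, ATPsynbeta, UQCR-C2, ATPsynC, SdhBL and SdhAL) in every library, by the 9 groups, CRY2-ZLD left of wild type. ND-B16.6 is higher and ND-13B lower in CRY2-ZLD groups, UQCR-C2 is lowest in CRY2-ZLD NC10-14, CRY2-ZLD NC10-12 and wild-type NC10-14 embryos, and ATPsynbeta is lowest in wild-type NC10-14.

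Among the copies in complex I, ND-49L was found nearly only in lit CRY2-ZLD embryos. It passed the filter on low counts only through CRY2-ZLD libraries, of which the highest had 1.096 CPM. The highest wild-type library had 0.1621 CPM. A higher call of this copy is thus tied to that filter. ND-49L had 63 counts in the 4 CRY2-ZLD and 0 in the 4 wild-type NC13-14 embryos, at least 14.97-fold higher (edgeR adjusted p = 0.0342), and every CRY2-ZLD library had counts. At NC10-14 it had 41 counts in CRY2-ZLD and 0 in wild-type embryos, at least 13.2-fold higher, which was not called. The call at NC10-12, 28 against 0 counts, rested on CRY2-ZLD replicates 3 and 4, which held all of them, and it was lost without the 5 libraries that stand apart. Unlit CRY2-ZLD embryos held 4 counts, and NC14 embryos held 0 in CRY2-ZLD and 7 in wild type.

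In complex III the core protein UQCR-C2 was lower in CRY2-ZLD at NC10-12, with 19.5, 12.2, 5.23 and 7.36 CPM in CRY2-ZLD and 47.2, 45.1, 30.6 and 45.1 CPM in wild-type embryos, 3.80-fold lower and without overlap (log2 change -1.93 ± 0.38, SE; edgeR adjusted p = 0.000237). It stayed called without the 5 libraries that stand apart (-1.42; edgeR adjusted p = 0.0022) and under every single library left out. The other core protein, UQCR-C1, was called lower at NC10-12 (-0.67 ± 0.24; edgeR adjusted p = 0.0334) and at NC14 (-0.83 ± 0.24; 0.0161), with overlapping libraries, and in neither window under the ribosomal protein scaling or without the 5 libraries that stand apart. UQCR-6.4L, a copy, had 2 counts in CRY2-ZLD and 90 in wild-type NC14 embryos, 32.4-fold lower with a 95% counting interval of 8.73 to 272 (edgeR adjusted p = 0.0179, lost without CRY2-ZLD NC14 replicate 1 or 3). Its median was 0.686 CPM in wild-type and 0.153 CPM in CRY2-ZLD libraries. Whether it would pass the filter on low counts without wild type was not tested, so a lower call may be tied to that filter. In complex IV no nuclear member was called between genotypes in any window, and at an unadjusted p under 0.05 there were 2 of 11 at NC10-14, 1 at NC10-12 and 0 at NC13-14 and NC14. Among all 9519 genes, 2769, 4020, 2740 and 2856 had such a p at NC10-14, NC10-12, NC13-14 and NC14.

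In complex V the catalytic subunit gene ATPsynbeta (chr4:1031484-1034917, plus strand, dm6) was higher in CRY2-ZLD at NC10-14, with 450, 472 and 588 CPM in CRY2-ZLD and 243, 196 and 320 CPM in wild-type embryos (log2 change 0.99 ± 0.26, SE; edgeR adjusted p = 0.00745). Those 3 wild-type libraries lay below every other library of either genotype. Wild-type NC10-14 embryos were 2.53-fold lower than wild-type NC13-14 embryos, at 659, 717, 564 and 627 CPM (log2 change -1.34 ± 0.25, SE; edgeR adjusted p = 0.000486), and no other nuclear member was called between these groups, where 18.5% of all genes were (7.99% lower and 10.5% higher) and 38.3% did not overlap. Under the ribosomal protein scaling 1 was lower and 4 were higher, beside 398 lower and 989 higher of all 9519 genes. Of all calls 28.7% were lower under it, against 43.1% with trimmed means. That comparison was added after the data were seen and shares its libraries with the genotype comparisons. The genotype difference of ATPsynbeta was larger at NC10-14 than at NC13-14 by 1.44 ± 0.34 on the log2 scale (SE; edgeR adjusted p = 0.029), the only nuclear member called in this interaction, where 0.998% of all genes were (0.462% lower and 0.536% higher). It was lost in 7 of 14 fits that each left out 1 library, and under the ribosomal protein scaling (adjusted p = 0.163).

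ATPsynC, the ring subunit of the membrane rotor, was lower in CRY2-ZLD at NC10-12 and NC13-14. At NC13-14 it had 376, 466, 593 and 404 CPM in CRY2-ZLD and 827, 879, 660 and 802 CPM in wild-type embryos, 1.72-fold lower (log2 change -0.78 ± 0.21, SE; edgeR adjusted p = 0.00876), and it stayed called under the ribosomal protein scaling (-0.60). At NC10-12 it had 411, 483, 511 and 337 CPM in CRY2-ZLD and 662, 802, 843 and 570 CPM in wild-type embryos (-0.72 ± 0.21; edgeR adjusted p = 0.00884, and -0.49 with 0.0784 under that scaling). Libraries overlapped in neither window. ATPsyngamma, the central stalk, was called lower at NC10-12 and NC14 by 0.72 and 0.67 on the log2 scale, in neither under that scaling and in neither without the 5 libraries that stand apart (-0.72 with an edgeR adjusted p of 0.0675 at NC10-12, and -0.42 with 0.259 at NC14). ATPsynE was called lower at NC14 by 0.70, with -0.03 under that scaling. For NC10-12 against NC14 no nuclear member was called in the interaction, and 4.85% of all genes were called (1.87% lower and 2.98% higher). At an unadjusted p under 0.05 there were 5 nuclear members, beside 2068 of all 9519 genes.

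Averaged over the 4 windows, a comparison added after the data were seen, 20 nuclear members were lower and 5 higher in CRY2-ZLD, against 48.8% of all genes called, 23% lower and 25.9% higher. Under the ribosomal protein scaling the split turned to 7 lower and 20 higher, beside 1134 lower and 3716 higher of all 9519 genes. Of the 25 calls, 12 remained under it, while 18 remained without the 5 libraries that stand apart. Under that scaling ND-42, ATPsynCF6, ATPsynG, ND-20 and ND-B22, called lower with trimmed means, turned to 0.096, 0.059, 0.085, 0.067 and 0.028. The 12 calls that remained under it were ND-B16.6, ND-51, ND-MLRQ, SdhD and COX4 higher, and ND-13B, ND-19, ND-51L1, SdhAL, SdhBL, UQCR-C2 and UQCR-6.4L lower. ND-B16.6 averaged a log2 change of 1.07 ± 0.12 (SE; edgeR adjusted p = 1.5e-08) and ND-13B one of -1.88 ± 0.27 (1.35e-06).

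Set against unlit CRY2-ZLD embryos, those lit during NC10-14 had 8 nuclear members lower and 3 higher of 72, where 37.4% of all genes were called (17.1% lower and 20.3% higher) and 44.1% had libraries that did not overlap. Under the ribosomal protein scaling 3 were lower and 5 higher, beside 979 lower and 2115 higher of all 9519 genes. Of all calls 31.6% were lower under it, against 45.6% with trimmed means. UQCR-C2 had 9.12, 9.61 and 6.90 CPM in lit NC10-14 embryos and 56.1, 47.3, 58.3 and 49.3 CPM in unlit embryos, 6.18-fold lower (log2 change -2.63 ± 0.44, SE; edgeR adjusted p = 1.78e-05). UQCR-6.4, a small complex III subunit, had 1.47, 1.77 and 1.42 CPM in lit and 6.43, 8.33, 11.7 and 11.3 CPM in unlit embryos, 6.06-fold lower (edgeR adjusted p = 0.000104). COX7A of complex IV had 14.7, 14.0 and 11.7 CPM in lit and 47.0, 68.1, 63.4 and 64.2 CPM in unlit embryos, 4.498-fold lower (edgeR adjusted p = 0.000108). All 3 were separated without overlap and stayed called under every scaling and with each library left out in turn.

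The same 3 members were low in wild-type NC10-14 embryos too, with UQCR-C2 at 21.0, 6.31 and 24.3 CPM, UQCR-6.4 at 2.90, 2.005 and 4.01 CPM and COX7A at 22.7, 22.2 and 34.8 CPM. In wild-type NC13-14 embryos UQCR-C2 had 44.0, 34.5, 40.7 and 25.3 CPM, a log2 change of -1.07 (edgeR adjusted p = 0.0628; 95% interval -1.89 to -0.26). For COX7A and UQCR-6.4 the wild-type changes were -0.69 each and not called. CRY2-ZLD NC10-12 replicates 3 and 4 had 9.95 and 14.5 CPM of COX7A, beside 48.1 and 35.5 CPM in replicates 1 and 2. Totals were 21638066 to 27596697 counts in the lit CRY2-ZLD NC10-14 libraries and 13846445 to 26284832 counts in the unlit ones, and both groups hold libraries of both number blocks.

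In all, 3 members rose in lit NC10-14 embryos against unlit ones. SdhB had 120, 124 and 150 CPM in lit and 87.9, 90.5, 82.1 and 78.0 CPM in unlit embryos (log2 change 0.63 ± 0.18, SE; edgeR adjusted p = 0.0059). Its highest group mean was that of wild-type NC10-14 embryos, at 143 CPM. SdhD had 64.0, 75.3 and 81.1 CPM in lit and 46.7, 57.8, 35.5 and 33.8 CPM in unlit embryos (0.76 ± 0.26; edgeR adjusted p = 0.0193, lost without any of 3 libraries). ND-75 had 130, 162 and 233 CPM in lit and 97.2, 112, 120 and 115 CPM in unlit embryos (0.66 ± 0.19; edgeR adjusted p = 0.00742, and 0.135 without lit replicate 4). For SdhD and ND-75 the highest group mean was that of the lit CRY2-ZLD NC10-14 embryos, at 73.5 and 175 CPM. ATPsynbeta, UQCR-C1, COX4, ATPsynB and ND-B17.2 were lower by 0.48 to 0.71 on the log2 scale, none of which held under the ribosomal protein scaling, with its shift of 0.257.

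Light during NC13-14 called only UQCR-C1 and ATPsynbeta against the unlit embryos, both lower, where 13.1% of all genes were called (6.41% lower and 6.67% higher) and 26.2% had libraries that did not overlap. UQCR-C1 had 85.3, 96.7, 112 and 104 CPM in lit and 134, 191, 230 and 200 CPM in unlit embryos, 1.89-fold lower (log2 change -0.92 ± 0.24, SE; edgeR adjusted p = 0.0102; -0.84 under the ribosomal protein scaling). ATPsynbeta had 434, 611, 506 and 329 CPM in lit and 781, 969, 884 and 655 CPM in unlit embryos, 1.75-fold lower (edgeR adjusted p = 0.014), a call lost under that scaling (0.123) and without lit replicate 1 or 4 (up to 0.0665). UQCR-C2 was at 17.2, 31.2, 24.8 and 28.6 CPM in these lit embryos, all below the unlit ones, with an edgeR adjusted p of 0.0564. Both lit comparisons share the 4 unlit embryos. No mitochondrial member was called in either.

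Unlit CRY2-ZLD embryos had 3 nuclear members higher and none lower than wild-type NC13-14 embryos, which differ from them in both genotype and light, against 8.03% of all genes called (4.45% lower and 3.57% higher) and 23.8% with libraries that did not overlap. Under the ribosomal protein scaling 4 were higher and 0 lower, beside 273 higher and 210 lower of all 9519 genes. Of all calls 43.5% were lower under it, against 55.5% with trimmed means. ND-B16.6 had 77.2, 83.5, 93.5 and 93.6 CPM in unlit CRY2-ZLD embryos, 2.72-fold higher than in wild-type NC13-14 embryos (log2 change 1.44 ± 0.24, SE; edgeR adjusted p = 9.9e-05). ND-51 had 43.8, 43.7, 46.7 and 25.8 CPM in unlit CRY2-ZLD and 19.3, 18.8, 17.97 and 18.995 CPM in wild-type embryos (1.09 ± 0.30; edgeR adjusted p = 0.0179, lost without unlit or wild-type replicate 3). COX4 of complex IV had 260, 332, 322 and 326 CPM in unlit CRY2-ZLD and 194, 191, 230 and 226 CPM in wild-type embryos (0.56 ± 0.17; edgeR adjusted p = 0.0384, lost without any of 7 libraries). ND-13B had 21.8, 30.2, 13.0 and 16.9 CPM in the unlit embryos, below all 4 wild-type NC13-14 values, with a log2 change of -1.06 that was not called (edgeR adjusted p = 0.228; 95% interval -2.08 to -0.03).

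For ND-B16.6 the lit CRY2-ZLD embryos differed from the unlit ones by -0.17 at NC10-14 (95% interval -0.67 to 0.33) and by -0.34 at NC13-14 (-0.81 to 0.12), neither called. For ND-13B the log2 changes of lit against unlit embryos were -1.28 (-2.42 to -0.14) and -0.61 (-1.63 to 0.41), neither called. The wild-type NC13-14 libraries serve both the unlit and the NC13-14 genotype comparison.

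Other genes of the pathway were read from lists of their own, to be read beside the share of all genes called, which was 15.4% at NC10-14, 33.4% at NC10-12, 17.3% at NC13-14, 17.4% at NC14, 37.4% and 13.1% for light during NC10-14 and NC13-14, and 8.03% for unlit embryos against wild type. Of 10 tested components whose symbols fall outside the rule, blw, the ATP synthase alpha subunit, was called lower in CRY2-ZLD at NC10-12 (238 ± 62 CPM in CRY2-ZLD, 363 ± 27 CPM in wild type; SD, n = 4 each; log2 change -0.61, edgeR adjusted p = 0.0117) and at NC13-14 (270 ± 37 CPM in CRY2-ZLD, 395 ± 32 CPM in wild type; -0.55, 0.038), and no other member of that list was called in any window. Of 14 tested genes that copy and express mitochondrial DNA, TFAM, which packages that DNA, was higher in CRY2-ZLD at NC10-12, NC13-14 and NC14, with 148 ± 21 CPM in CRY2-ZLD and 84.6 ± 11.2 CPM in wild-type embryos at NC10-12 (SD, n = 4 each; 0.81, edgeR adjusted p = 0.000148). Its unlit CRY2-ZLD level of 130 ± 21 CPM was also above the wild-type NC13-14 level of 81.4 ± 2.9 CPM (0.68; 0.00363).

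PolrMT, the RNA polymerase of the mitochondria, had 94.4 ± 29.6 CPM in CRY2-ZLD embryos lit during NC10-14 (n = 3), against 3.14 ± 1.13 CPM in unlit embryos (SD, n = 4; log2 change 4.92 ± 0.71, SE; edgeR adjusted p = 2.78e-06). It was also higher at NC13-14 against unlit embryos (20.7 ± 10.46 CPM lit; 2.72) and in CRY2-ZLD at NC10-12 against wild type, where libraries overlapped (78.5 ± 68.7 CPM in CRY2-ZLD, 9.96 ± 9.57 CPM in wild type; 2.98). The DNA polymerase PolG1 was higher in lit NC10-14 embryos as well (86.3 ± 23.1 CPM lit, 23.6 ± 4.8 CPM unlit; 1.87). Wild-type NC10-14 levels of PolrMT and PolG1 are not given here, so light and inactivation of Zelda cannot be told apart in these changes. No mitochondrial member was called in those comparisons by the fit over all 34 libraries.

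Of 12 tested genes of the citric acid cycle and pyruvate entry, Mdh2, the mitochondrial malate dehydrogenase, was lower in CRY2-ZLD in all 4 windows by 6.56 to 7.39 on the log2 scale and in unlit embryos by 7.13, and at most 1 other gene of the list was lower in a window. Of 71 tested mitochondrial ribosomal proteins, 2 were lower and 1 higher at NC10-14 (15.4% of all genes were called), 13 and 3 at NC10-12 (33.4%), 3 and 2 at NC13-14 (17.3%), and 2 and 0 at NC14 (17.4%). Of 7 tested assembly factors, Cox11 and CIA30 were lower and Cox10 higher at NC10-12, where 33.4% of all genes were called, and none was called in the other windows. Of 5 regulators of nuclear mitochondrial genes, ewg was higher at NC10-14 and NC13-14, and Myc was lower at NC10-12, NC13-14 and NC14.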

How the data were processed

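Raw counts per gene were deposited by the authors as 1 table with the gene length in bases as another column, per the file headers. Trimmomatic 0.36, HISAT2 2.1.0, featureCounts 1.5.3, DESeq2 1.14.1, the dm6 build and FlyBase annotation 6.20 are named in the submitters' processing notes. From the counts, edgeR 4.0.16 (R 4.3.3) gave trimmed-mean scaling, and genes passing filterByExpr with a minimum count of 10 were fitted with 1 mean per group over all 34 libraries, which left 9519 genes. The quasi-likelihood test was adjusted by Benjamini-Hochberg over these, and calls use an adjusted p under 0.05. The fit for library numbers S11 to S18 against S1 to S10 used 18 libraries. CPM are scaled counts, and intervals of low counts cover counting error only, at the 95% level. The procedure was tested on simulated data. No 2 libraries were identical.

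Named in the text were every mitochondrial member, the 2 members of each complex with the smallest p, called nuclear members with a log2 change of at least 1, a fixed panel and the copies, as well as called members of short context lists. Other members named were chosen after their values were seen. The members and lists were chosen with earlier results of these data known. Alternatives were other scalings, filters, tests and library subsets.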

Additional observations from a re-analysis of the deposited data

Results flagged for a closer look

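In groups of 4 embryos, 164 sets of values of the members were searched for a single embryo far from the other 3, and 16 were found. Chance alone flags about 1 in 20. Wild-type NC14 replicate 3 was far above the other 3 in UQCR-C1 (300.9 CPM), UQCR-Q (236.4 CPM), COX5A (426 CPM), COX7A (129 CPM), ATPsynC (1226 CPM) and the summed nuclear share (1.125% of counts). In the same group mt:ND2 was high in replicate 4 (70.59 CPM) and ND-49L in replicate 2 (0.1621 CPM).

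ND-13B was high in CRY2-ZLD NC13-14 replicate 4 (28.44 CPM). In unlit CRY2-ZLD embryos ND-51 was low in replicate 4 (25.79 CPM), COX4 was low in replicate 1 (260.2 CPM) and ND-49L was high in replicate 2 (0.1528 CPM). In CRY2-ZLD NC10-12 embryos SdhAL was high in replicate 2 (0.2968 CPM), ND-49L in replicate 3 (1.096 CPM) and mt:Cyt-b in replicate 4 (3736 CPM). UQCR-C2 was low in wild-type NC10-12 replicate 3 (30.63 CPM).

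The genotype effect on ATPsynbeta differed between windows, being larger at NC10-14 than at NC13-14 by 1.44 on the log2 scale in the test of that difference.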

How the results depend on the processing

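Of 210 counts of called members under alternatives, 188 were within 1.5 times the reported count and 22 were not. Of 2475 values of members named by the rule, 2351 kept their direction and side of the threshold, 69 lost the call, 51 gained one and 4 reversed. Scaling on cytosolic ribosomal protein genes gave 1 nuclear call for light at NC13-14 against no light, 0 for the NC10-14 against NC13-14 interaction and 5 between the wild-type windows. Of all 9519 genes it called 366 lower and 438 higher, 21 and 16, and 398 and 989 in these comparisons. It moved the share of all calls that were lower to 23.4% averaged over windows, against 47%, and to 56.8% in the NC10-14 against NC13-14 interaction, against 46.3%. Under it ND-42 at NC14 reversed to 0.060, and in S11 to S18 ATPsynCF6 reversed to -0.0051 and UQCR-C1 to -0.072. Called members outside the naming rule also turned, ND-B17 at NC14 to 0.022 and, averaged, ND-42 to 0.096, ATPsynCF6 to 0.059, ATPsynG to 0.085, ND-20 to 0.067 and ND-B22 to 0.028. Fitting only the libraries compared gave nuclear counts of 3 at NC10-14, 11 at NC13-14, 1 at NC14, 9 for light at NC13-14, 11 for unlit embryos against wild type and 4 between wild-type windows, and 2 mitochondrial calls at NC10-12. All genes called lower and higher were then 376 and 294 of 7751 at NC10-14 and 1163 and 1312 of 8064 at NC10-12. They were 1326 and 1440 of 8155 at NC13-14 and 410 and 296 of 8009 at NC14. For light at NC13-14 they were 1189 and 890 of 8119, and for unlit embryos against wild type 868 and 987 of 8006. Between wild-type windows they were 1143 and 1365 of 7924. Without the 5 libraries that stand apart, nuclear counts were 4 at NC10-12, 5 at NC14 and 6 for light at NC13-14, and ND-49L at NC10-12 reversed to 0. That fit called 998 lower and 875 higher of 9816 genes at NC10-12, 813 and 611 at NC14, and 839 and 804 for light at NC13-14. Between wild-type windows, DESeq2 size factors and the DESeq2 Wald test gave 3 calls each, and library sizes without mitochondrial and ribosomal RNA 2. Of all 9519 genes, 835 were lower and 891 higher, 1124 and 1065, and 807 and 873, in that order. The cause was not tested. A term for library number gave 1 mitochondrial call at NC13-14, 4 averaged over windows, and 2 nuclear calls between wild-type windows.

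Embryos with the same replicate number correlated at -0.1079 to 0.2811, in no comparison over 0.1 in every pair, so the numbers were not taken to pair embryos. In the NC10-14, NC13-14 and unlit groups the numbers also carry the library blocks, replicates 1 and 2 in S1 to S10 and 3 and 4 in S11 to S18. The replicate block gave 1 mitochondrial call at NC14, 4 averaged over windows, and 2 nuclear calls between wild-type windows.

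With 1 library left out, nuclear counts ran from 3 to 7 at NC10-14, 6 to 11 at NC10-12, 2 to 5 at NC13-14, 3 to 16 at NC14, 6 to 11 for light at NC10-14, 1 to 3 for light at NC13-14, 1 to 3 for unlit embryos, 0 to 1 and 0 to 2 for the interactions, 19 to 26 averaged, 1 to 4 between wild-type windows and 12 to 19 for S11 to S18. The lowest came without CRY2-ZLD NC10-14 replicate 4, wild-type NC10-12 replicate 1 or 2, CRY2-ZLD NC13-14 replicate 1 and CRY2-ZLD NC14 replicate 1 in their windows. Mitochondrial counts ran from 12 to 13 for S11 to S18 and stayed at 0 in the other comparisons. Low counts limit SdhAL, SdhBL, ND-49L and UQCR-6.4L most.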
